A study of Oryza sativa Japonica Group with 27 samples.

Results

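The comparison described here is the effect of dimethyl sulfate (DMS) in the standard Structure-seq2 protocol. It rests on 4 of the 14 libraries of the series, 2 from shoots treated with DMS and 2 from shoots without it. Each was read with a standard and with a custom sequencing primer, which gives 8 of the 27 samples. The source of all 4 was shoot tissue of japonica rice, cultivar Nipponbare, 14 days old, and they shared poly(A) selection, denaturation at 90 °C with salt, reverse transcription by SuperScript III at 55 °C without biotin, T4 DNA ligase, Q5 polymerase and gel (PAGE) purification at every step. Whether replicates were separate plants is not stated in the labels, and the p-values then reflect only how far these libraries spread, which may be technical. The comparisons below also draw on 4 libraries of the biotin variation, 2 with DMS and 2 without, where biotin was added and streptavidin replaced gel purification after reverse transcription and ligation. They draw further on 6 kinds of untreated library with 1 library each. These changed 1 step of the standard protocol, the final purification (agarose), the reverse transcription temperature (low RT reaction, 50 °C), the denaturation (low RT denaturation, 65 °C without salt), the ligase (Circligase), the PCR enzyme (Ex Taq) or the addition of biotin (biotin only).

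DMS enters living plant tissue and methylates adenine and cytosine that are not held in base pairs. Reverse transcriptase stops at the methylated bases, so that the ends of the cDNA report which bases were unpaired, and the untreated libraries give the stops that arise without the reagent. A table of counts per transcript does not show where reverse transcription stopped. It shows how many cDNA fragments each mRNA contributed, which depends on how much of the mRNA there was and on how well its fragments were made and recovered. These contributions cannot be told apart in such counts, nor can fewer cells of a type and less RNA per cell.

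The counts were summed over the transcripts of each locus, the part of the identifier before the dash, which turned 42132 transcripts into 35679 loci. The reference table used here matched 1 of these loci to a symbol. No gene name, function or process is therefore assigned to a locus, and identifiers are printed for 2 that fell and 2 that rose. Lists of genes by function and markers of the shoot were not analysed here.

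With the standard primer the libraries held 174728 and 410068 counts with DMS, and 124680 and 275482 counts without DMS. One count was worth 5.75 and 2.41 CPM in the libraries with DMS, and 8.09 and 3.72 CPM in those without, where CPM is the count scaled to a common library size with TMM factors. With the custom primer the totals were 197965 and 468337 with DMS, and 126736 and 333759 without. Thinned to 124680 counts, the standard-primer readings detected 13729 and 13789 loci with DMS, and 13733 and 13660 loci without. The treated libraries were thus close to the untreated ones in loci detected at equal depth. The 10 most abundant loci of each library took 10.3% and 10.9% of its counts with DMS, and 9.71% and 10.3% without. Pearson's r of log2(CPM + 1) across loci, which are not independent replicates, was 0.851 between the replicates with DMS and 0.809 between those without. Between a treated and an untreated library it ran from 0.769 to 0.866, which overlaps the agreement between replicates.

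In the fit of all 14 libraries, 6 abundant loci were called lower with DMS and no locus was called higher. The test was edgeR's quasi-likelihood test on 6628 loci, with 1 fit of all 14 libraries and a Benjamini-Hochberg adjusted p of 0.05 as the threshold. The 6 loci are 0.0905% of those tested. Without adjustment 137 loci were higher and 227 lower at a p under 0.05. DESeq2 called 19 higher and 58 lower after adjustment, among the 2285 loci to which it gave an adjusted p. The median log2 change over all loci tested was 0.02. TMM scaling itself places the bulk of the changes near 0, so this value could not show a change shared by most loci.

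The largest change among the 6 was that of OS08T0468100. It had 126.4 and 38.5 CPM (22 and 16 counts) in the libraries with DMS, against 1221 and 1116 CPM (151 and 300 counts) in those without. Both treated libraries were far below both untreated ones. On the log2 scale it changed by -3.90 with a standard error (SE) of 0.677 (adjusted p = 0.0368 by edgeR). Without the treated library replicate 2 it was no longer called (-3.20, adjusted p = 0.492 by edgeR). The custom primer read it at 35.1 and 8.33 CPM with DMS, against 493.2 and 453.8 CPM without, and it changed by -4.66 (SE 0.744, adjusted p = 0.00298 by edgeR). Its 3 listed transcripts were each lower in both treated libraries than in both untreated ones with the standard primer. Transcripts of 1 locus may share reads, as described below, so they do not add separate evidence.

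OS03T0592500 was the fourth most counted of the loci tested, with 3 loci above it in mean count over the 14 libraries. It had 1558 and 1050 CPM (271 and 436 counts) with DMS, against 15155 and 18605 CPM (1874 and 5003 counts) without. The groups lie about an order of magnitude apart, and the spread within each is small beside that distance. Its change was -3.70 on the log2 scale (SE 0.512, adjusted p = 0.00658 by edgeR). The custom primer gave 1425 and 824.8 CPM with DMS, against 12865 and 14085 CPM without, which is a change of -3.59 (SE 0.456, adjusted p = 0.000212 by edgeR). Both of its listed transcripts were lower in the treated libraries without overlap, though they too may share reads.

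The other 4 loci were also highly counted and showed the same separation. They lay between 267.3 and 2190 CPM with DMS, and between 3534 and 20372 CPM without DMS. Their log2 changes ran from -3.64 to -2.39, with standard errors from 0.391 to 0.552 and edgeR adjusted p-values from 0.00658 to 0.0171. With the custom primer the same 4 loci changed by -3.81 to -2.23, with edgeR adjusted p-values of at most 0.0104. Together the 6 loci held 0.585% and 0.316% of all counts in the libraries with DMS, and 4.89% and 4.84% in those without. With the custom primer they held 0.412% and 0.227% with DMS, and 3.58% and 3.36% without.

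**Figure D1:**
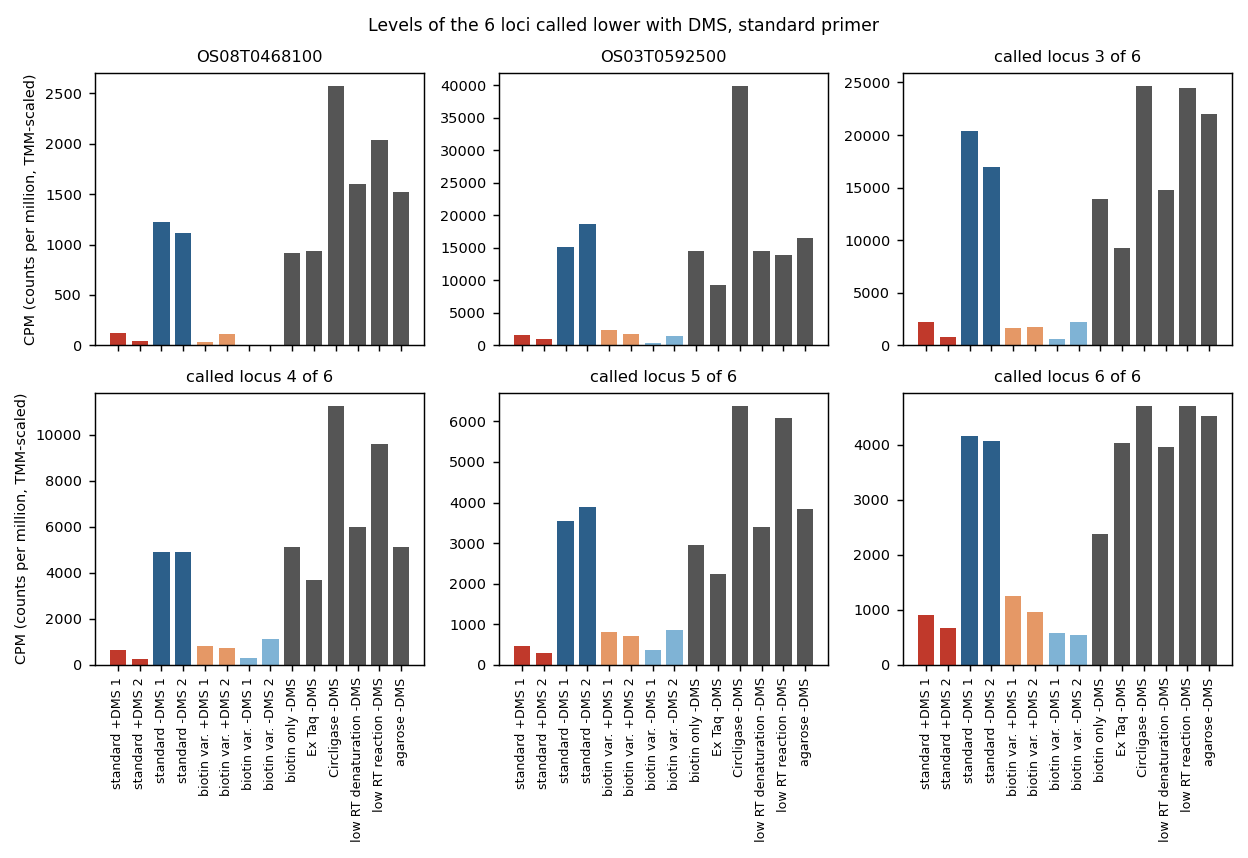
Level of each of the 6 loci called lower with DMS, in CPM (TMM-scaled, linear axis) in every standard-primer library, 1 bar per library. The standard protocol libraries stand at the left, with DMS and then without, followed by the 4 biotin variation libraries and the 6 kinds with 1 library each. In every panel the 2 standard libraries with DMS and the 4 biotin variation libraries lie below the other 8.

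The 6 loci called in the fit of 14 libraries were found among the loci with the most counts. Of the 70 loci with a mean of at least 300 counts over the 14 libraries 5 were called. Of the 154 with a mean of 100 to 300 counts 1 was called, and among the 6404 with fewer counts none was. As a class the 70 loci did not fall with DMS. Their median log2 change was 0.35, and the medians of the classes with fewer counts ran from -0.06 to 0.09. The fit of 10 libraries, described below, did call loci with fewer counts, 35 with a mean of 30 to 100 counts, 24 with a mean of 10 to 30 and 1 with a mean under 10. Replicates also lay closer together at higher counts. For loci with a mean of at least 300 counts the median absolute log2 difference between replicates was 0.185 with DMS and 0.271 without. For those with a mean under 10 counts it was 0.473 with DMS and 0.565 without. A missing call in a locus with few counts thus does not show that it did not change.

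**Figure D2:**
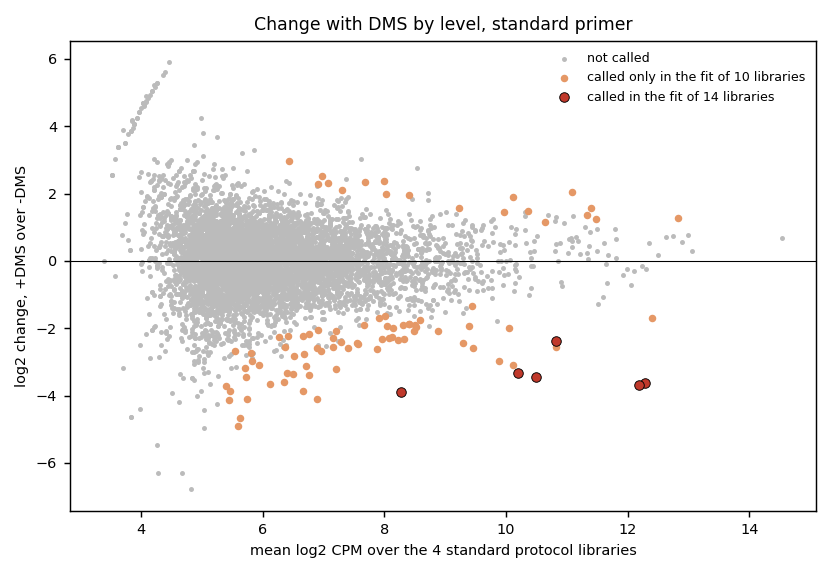
Log2 change between the standard libraries with and without DMS (vertical axis) against the mean log2 CPM over these 4 libraries (horizontal axis), 1 point per locus tested with the standard primer. Red points are the 6 loci called in the fit of all 14 libraries and orange points those called in the fit of 10 libraries. The red points lie at the right and below zero, apart from the grey cloud, and the orange points lie on both sides of zero with more below.

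The number of calls depended on which libraries shared the estimate of spread. The fit of all 14 libraries includes the biotin variation without DMS, whose replicates gave r = 0.48, at totals of 29777 and 135804 counts. That fit had a common biological coefficient of variation of 0.448. The part of their depth in the number of calls was not tested. A fit of the 10 libraries outside the biotin variation took its spread from the 4 standard libraries alone. Kinds with 1 library add nothing to that estimate. This fit had a coefficient of 0.308 and called 72 loci lower and 19 higher among 6064 tested. That is 1.5% of them (1.19% lower and 0.313% higher). All 6 loci above were among the 72. Leaving out the biotin variation without DMS replicate 1 alone gave 70 lower and 31 higher calls, and leaving out replicate 2 alone gave 73 and 31. Without the standard library with DMS replicate 2, the deepest, 2 loci were called, both lower and both among the 6. Higher loci made up 0% of the calls under TMM factors, 7.69% under RLE size factors and 13.3% when libraries were scaled by their totals.

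The 72 loci called lower in the fit of 10 libraries had a median log2 change of -2.56, from -4.91 to -1.34 in the fit of all 14 libraries. The 19 called higher had a median of 1.94, from 1.15 to 2.97. All 91 kept both treated libraries apart from both untreated ones, as did 49.9% of all 6628 loci tested. Among the loci called in this fit the lower ones were more numerous and their median lay further from 0. At an unadjusted p under 0.05 by edgeR this fit gave 557 lower and 431 higher loci. The fit of the 4 standard libraries gave 404 lower and 443 higher at that level, with 41 lower and 26 higher called. The filter on counts ran over more libraries without DMS than with it, and its part was not tested.

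The custom-primer table is a second reading of the same cDNA libraries and adds no replicates. There 50 loci were lower and 4 higher with DMS among 7777 tested, which is 0.694% of them (0.643% lower and 0.0514% higher). All 6 loci called with the standard primer were among the 50. All 50 and all 4 had the same direction with the standard primer, with log2 changes there from -6.31 to -1.45 and from 2.05 to 3.28. Of the 72 loci lower in the fit of 10 libraries 70 were tested with the custom primer, and all 70 had a log2 change below 0 there. The lists share 36 loci, which is 36 of the 72 and 36 of the 50. The 19 higher loci all had a log2 change above 0 with the custom primer, and 1 of them was called. The custom-primer count depended strongly on which libraries shared the estimate of spread. The fit of 13 libraries had a common biological coefficient of variation of 0.324. For the 9 libraries outside the biotin variation it was 0.12, and that fit called 721 loci lower and 549 higher among 7350 tested. A fit of the 4 standard libraries alone called 562 lower and 533 higher among 5787. In the fit of 13 libraries both counts fell when any 1 of the 4 standard libraries was left out.

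**Figure D3:**
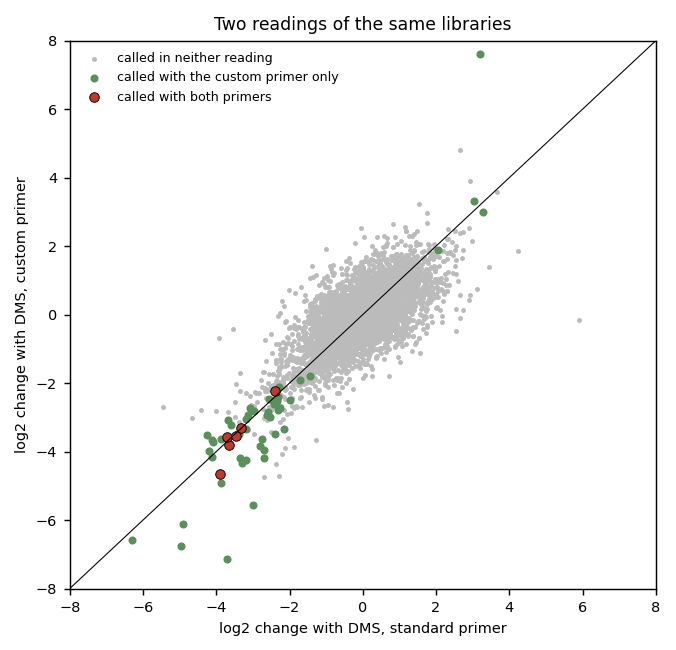
Log2 change with DMS in the custom-primer readings (vertical axis) against that in the standard-primer readings (horizontal axis) for the 5832 loci tested in both, with the line of equal change. The 6 loci called with both primers (red) lie close to the line, and all loci called with the custom primer alone (green) have the same sign in both.

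Of the 4 loci that rose with DMS in the custom-primer readings, 2 are described here. Neither passed the threshold with the standard primer in edgeR's fit of all 14 libraries. OS02T0530100 had 511.8 and 524.9 CPM (102 and 252 counts) with DMS in the custom-primer readings, against 41.1 and 58.6 CPM (5 and 19 counts) without. The treated libraries were nearly equal and both far above the untreated ones, and the change was 3.31 on the log2 scale (SE 0.596, adjusted p = 0.00827 by edgeR). With the standard primer it had 592 and 679.1 CPM with DMS, against 16.2 and 126.4 CPM without (3.03, SE 0.785, adjusted p = 0.246 by edgeR). It did pass there by DESeq2 (adjusted p = 0.0123), and by edgeR without replicate 1 or 2 of the untreated biotin variation (adjusted p = 0.0454 and 0.0445). The untreated libraries differed more from each other in that reading. In the biotin variation it had 250.3 and 374.1 CPM with DMS, and 340.6 and 191.3 CPM without. The 6 single libraries lay between 0 CPM in agarose and 191.4 CPM in biotin only.

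OS04T0561500 had 90.3 and 122.9 CPM (18 and 59 counts) with DMS in the custom-primer readings and no count in either library without DMS. It was at least 6.29-fold higher with DMS, taking 3 counts in each untreated library as the floor (edgeR adjusted p = 0.0276). With the standard primer it had 15 and 54 counts with DMS, against 3 and 1 counts without, a ratio of 7.73 between mean CPM, and the log2 value of 3.20 did not pass the threshold (SE 1.20, adjusted p = 0.651 by edgeR). In the biotin variation it had 91.9 and 172.6 CPM with DMS, and 0 and 212.6 CPM without. Of the single libraries biotin only was highest, at 37.5 CPM, and 4 had no count. The floor covers counting error alone, since the sources used here give no molecular identifiers.

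Across the 5832 loci tested in both readings the changes were compared by size. With at least a 4-fold change in both readings and no overlap of the groups in either, 17 loci (0.291%) were higher with DMS and 125 (2.14%) were lower. At 8-fold the numbers were 4 higher and 29 lower. With at least a 2-fold change they were 257 higher and 403 lower, and without a minimum size 926 higher and 965 lower. The excess of lower over higher loci was thus found at the larger changes and was small over all loci. The log2 changes of both readings had Pearson's r = 0.73 over these loci, which share their libraries, and 74.4% of the loci had the same sign.

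The level of the 6 loci in the other kinds of library shows where the treated and untreated standard libraries stood in the series. OS08T0468100 had 30.6 and 107.9 CPM in the biotin variation with DMS and no count in either library of the biotin variation without DMS. A count of 0 allowed up to 60.1 CPM in replicate 1 and 21.3 CPM in replicate 2. In the 6 kinds with 1 library, all without DMS, the locus lay between 919.6 CPM in biotin only and 2571 CPM in Circligase, with a median of 1561. The locus was thus low or without a count in the biotin variation with DMS and without it.

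OS03T0592500 had 2380 and 1698 CPM in the biotin variation with DMS, and 320.6 and 1509 CPM in the biotin variation without DMS. In the 6 single libraries it lay between 9292 CPM in Ex Taq and 39841 CPM in Circligase, with a median of 14552. The standard libraries without DMS fell inside this range and those with DMS fell far below it. For all 6 loci the 2 standard libraries with DMS and the 4 biotin variation libraries were all lower than the other 8 libraries. Over all loci tested 202 (3.05%) showed this arrangement, and so did 54 of the 72 loci lower in the fit of 10 libraries. The 6 and the 72 were chosen for lower levels in the standard libraries with DMS, which fixed part of the arrangement beforehand. Of all loci tested only 49.9% kept the standard groups apart, in either direction. The share over all loci is thus not a like background for the chosen ones.

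These levels were also tested with the biotin variation set against the mean of the 6 single libraries, a contrast without the 4 standard libraries that was chosen after the data had been seen. In the biotin variation with DMS 10.4% of the 6628 loci were called, 221 of them lower (3.33%), with a median log2 change of 0.03 over all loci. All 6 loci were called lower there, and so were 52 of the 72. In the biotin variation without DMS 10.7% were called, 422 of them lower (6.37%), with a median of -0.55 over all loci, and the call was made for all 6 loci and for 43 of the 72. The median log2 change of the 72 was -2.62 with DMS and -2.64 without. The standard libraries without DMS, set against the same single libraries, gave no call in either direction among 6628 loci (edgeR), with 259 higher and 16 lower at an unadjusted p under 0.05. The standard libraries with DMS gave calls for 0.468% of the loci, 9 higher (0.136%) and 22 lower (0.332%), the 6 loci among the lower.

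The loci higher with DMS were set against the single libraries in the same way. Of the 19, 11 were called higher in the biotin variation with DMS, where 471 loci (7.11%) were, and 2 in the biotin variation without DMS, where 286 loci (4.32%) were. The median of their levels relative to the single libraries, on the log2 scale, was 1.35 and 1.47 in the biotin variation with DMS, and in its untreated libraries -0.33 and 0.59. Over all loci tested the same median was -0.14 in both biotin variation libraries with DMS. In the untreated ones it was -1.77 and -0.32. The median of the 19 thus lay above that of all loci in every biotin variation library, with DMS and without. Untreated replicate 1 held 29777 counts and detected 4373 loci, so many of the 6628 tested had no count there. The 19 were not matched to all loci in level, so their position alone does not show that they were raised. In 1 of the 19 the 2 standard libraries with DMS and the 4 biotin variation libraries all lay above the other 8. That arrangement held for 108 (1.63%) of the loci tested, which were not chosen by the standard libraries as the 19 were. The biotin only library, prepared without DMS and without streptavidin, had the highest median of the 6 single libraries for the 19 loci, at 0.66.

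**Figure D4:**
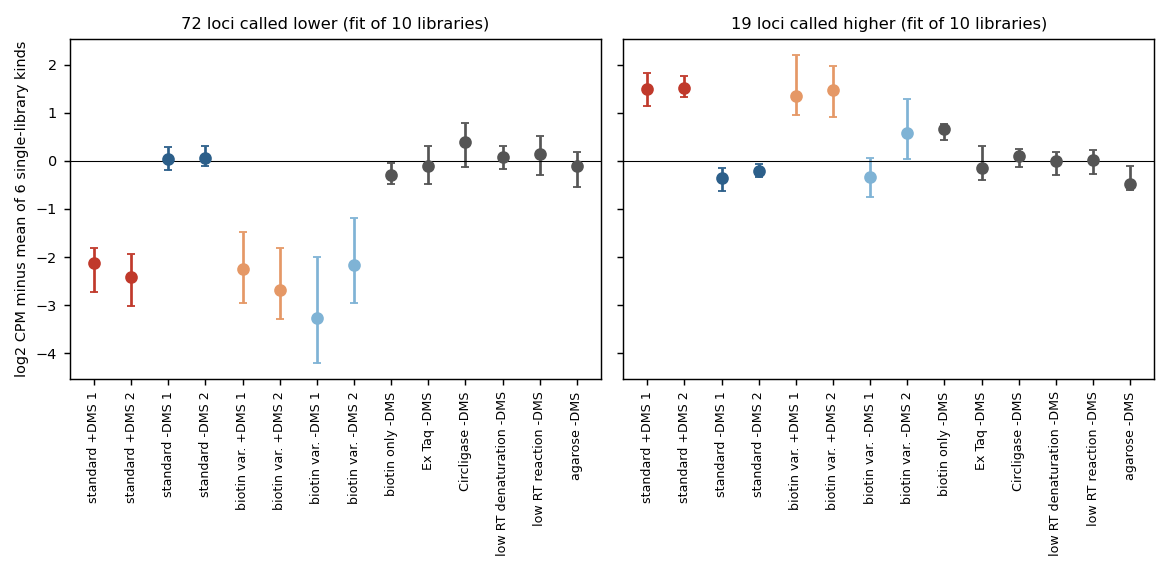
Median over loci of log2 CPM minus the mean of the 6 kinds with 1 library (vertical axis) in each of the 14 standard-primer libraries, for the 72 loci called lower and the 19 called higher with DMS in the fit of 10 libraries. Points are medians and bars run from the lower to the upper quartile over loci. The loci were chosen by the standard libraries at the left. The medians of the 72 lie between -3.26 and -2.16 in the 4 biotin variation libraries, with the lowest in untreated replicate 1. Those of the 19 lie at 1.35 and 1.47 in the biotin variation with DMS, and at -0.33 and 0.59 in its untreated libraries. The medians over all loci tested, not drawn, were -0.14 in both biotin variation libraries with DMS. They were -1.77 and -0.32 in untreated replicates 1 and 2.

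Within the biotin variation none of the 6 loci was called lower with DMS, and the sign of 3 of them depended on the scaling. Under TMM factors their log2 values ran from 0.10 to 6.69, with a median of 0.63 beside 0.62 over all loci tested. Under RLE size factors 3 of the 6 lay below 0, with -0.19 as the lowest value and a median of 0.26 beside 0.33 over all loci. Scaled by library totals 3 again lay below 0, with -0.35 as the lowest. Without replicate 1 of the untreated biotin variation 3 did too, with -0.53 as the lowest, and without replicate 1 of the treated one 1 did, at -0.03. Without replicate 2 of the untreated one all 6 lay above 0, from 0.92 to 6.75. Their median was then 1.47, beside 4.37 over all loci. Without replicate 2 of the treated one all 6 again lay above 0, from 0.14 to 5.62. None of the 6 was called by edgeR in the fit of 14 libraries, where 7 loci (0.106%) were called lower and 2 (0.0302%) higher. The 6.69 belongs to OS08T0468100 and depends on the prior count of the fit, since no untreated biotin variation library had a count. The difference of the DMS effect between the biotin variation and the standard protocol was tested for all 6628 loci. It was called in 4 (0.0604%), all 4 among the 6. The 6 were chosen for a low DMS effect in the standard protocol, which is 1 term of this difference. Part of the difference, and of this overlap, was thus fixed beforehand. OS03T0592500 differed by 4.81 (SE 0.69, adjusted p = 0.0175 by edgeR). All 6 passed the threshold with the custom primer. Over all loci the median difference was 0.64 under TMM factors, 0.39 under RLE size factors and 0.17 when libraries were scaled by their totals. With replicate 1 or replicate 2 of the biotin variation with DMS left out there were 0 calls by edgeR, with 458 or 489 loci higher at an unadjusted p under 0.05, and without the biotin variation without DMS replicate 2 there were 296 higher and 25 lower.

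The counts of transcripts from 1 locus were not separate measurements. In 432 loci with 2 transcripts the split of counts between the transcripts varied over libraries by a median chi-square per degree of freedom of 0.226, where separate reads with a constant split would give a value near 1. Of the 6 loci 5 are listed with more than 1 transcript, beside 46.4% of all loci tested. A sum over transcripts may thus count a read more than once, which could not be checked on the reads. With the most counted transcript of each locus in place of the sum, 20 loci were called lower, the 6 among them, and 1 higher. In addition 35 of the loci tested had counts equal to those of another locus in all 14 libraries, so the number of loci can exceed the number of separate RNAs.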

How the data were processed

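Whole-number counts per transcript were deposited by the authors in 1 table for each sequencing primer, with libraries named by letter per the file headers. Cutadapt and Bowtie2 were used, per the submitters' processing notes, with no version named. The build, the annotation and the counting of reads shared by transcripts were not given in the sources used here. Both tables had 0 columns outside the labels.

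Counts were summed per locus. Those reaching 10 counts in 2 or more libraries entered the quasi-likelihood test of edgeR 4.0.16 (limma 3.58.1, R 4.3.3), with TMM factors on full library totals and an adjusted p of 0.05 (Benjamini-Hochberg) as threshold. A mean per kind of library left 4 residual degrees of freedom in the fit of 14 libraries. The size of the log2 change over the square root of its F statistic gave the standard error. Log2 CPM levels used a prior count of 2. The custom-primer table was fitted over its 13 libraries in the same way. Intervals and floors cover counting error only.

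Loci were named by size of change among those past the threshold whose groups did not overlap, where a group averaged 20 counts or more and the other reading had the same sign. The rule reserved most names for loci with a symbol, and at most 2 in each direction are given by identifier. Those that rose came from the custom-primer reading, since edgeR's fit of all 14 libraries called none higher in the other. The libraries compared, the rule and the lists were chosen with earlier results of these data known. Gene lists by function were planned and not run, since the loci could not be paired with products. Alternatives were other scalings, filters, DESeq2 1.42.0, other sets of libraries, the other readings and leaving out libraries. Where that left 1 library in a group, it was assumed to vary like the other groups. The scripts were tested on simulated counts.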

Additional observations from a re-analysis of the deposited data

Results flagged for a closer look

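The DMS effect differed between the protocols in 4 loci, by a test of the difference itself in the fit of all 14 libraries. All 4 were among the 6 loci chosen for a low DMS effect in the standard protocol. That effect is 1 term of the difference, so part of the difference was fixed beforehand. The difference, biotin variation minus standard protocol on the log2 scale, was 10.6 in OS08T0468100 (SE 1.73, adjusted p = 0.0365 by edgeR), a size that depends on the prior count because the locus had no count in the biotin variation without DMS. It was 4.81 in OS03T0592500 (SE 0.69, adjusted p = 0.0175 by edgeR). In the third locus it was 3.60 (SE 0.632, adjusted p = 0.049 by edgeR). In the fourth it was 3.37 (SE 0.55, adjusted p = 0.0365 by edgeR). In each of the 4 the biotin variation libraries, with DMS and without, lay below all 6 single libraries. With either biotin variation library with DMS left out, none of the 4 passed the threshold (adjusted p from 0.397 to 0.532 by edgeR), while the differences themselves ran from 3.08 to 11.3. OS08T0468100 also missed it without replicate 1 of the untreated biotin variation (adjusted p = 0.0819 by edgeR). The third and the fourth locus also missed it without standard library replicate 1 or 2 with DMS, or replicate 2 without DMS (adjusted p from 0.0642 to 0.12 by edgeR).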

How the results depend on the processing

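The 6 loci called lower kept their direction under all 19 alternatives tried for each, and 101 of the 114 values stayed past the threshold. Each missed it in the sum of both primers (edgeR adjusted p from 0.0566 to 0.0886), where edgeR called 0 loci, with 335 lower and 173 higher at an unadjusted p under 0.05. The other 7 values that missed it came from the replicate block or from leaving out a library, with adjusted p up to 0.492. Counts of members of gene lists were planned and not run. Counts of calls, 6 lower and 0 higher with the standard primer, moved with nearly every choice. The number of loci tested differed too, so these counts do not share a base. Lower and higher calls were 12 and 1 under RLE size factors and 13 and 2 under scaling by totals. They were 10 and 0 without a filter (26332 loci tested) and 24 and 7 with a minimum of 50 counts (1208 tested). With DESeq2 they were 58 and 19 (2285 tested). They were 41 and 26 in the fit of the 4 standard libraries, 72 and 19 in that of the 10 libraries outside the biotin variation, and 70 and 31 or 73 and 31 without replicate 1 or 2 of the biotin variation without DMS. They were 50 and 4 in the custom-primer table, 14 and 1 without 264 loci that differ 8-fold between primers, 56 and 2 for transcripts, and 20 and 1 for the most counted transcript of each locus. In the sum of both primers over the 9 libraries outside the biotin variation they were 525 and 323. Leaving out each standard library in turn gave 2 to 8 lower and 0 to 1 higher calls. With the replicate number as a block in the 4 standard libraries there were 13 lower and 7 higher calls. The replicate deviations of treated and untreated libraries correlated at 0.159 with the standard and 0.0823 with the custom primer over 2 pairs, which does not show that the numbers pair the libraries.

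The custom-primer calls, 50 lower and 4 higher, were 91 and 12 under RLE size factors, 105 and 31 under scaling by totals, 721 and 549 in the fit of 9 libraries outside the biotin variation, and 562 and 533 in that of the 4 standard libraries. Without each standard library in turn they were 3 to 11 lower and 0 higher (edgeR). The difference between protocols, 4 higher and 0 lower, gave 9 higher under RLE size factors, 6 higher under scaling by totals, and 15 higher and 2 lower in the custom-primer table. Leaving out each of the 8 replicated libraries in turn gave 0 to 296 higher and 0 to 25 lower. Chosen after seeing the data were the alternatives for the custom-primer calls, every fit without a biotin variation library, leaving out libraries for the difference, the sum over 9 libraries, the most counted transcript and the alternatives for DMS within the biotin variation. The causes of these differences were not tested. Totals of 124680 to 468337 counts limit what can be called in loci with few counts.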
